A study of Mus musculus with 4 samples.

Results

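The subject here is the mevalonate arm of cholesterol synthesis in mouse liver: the 9 genes Acat2, Hmgcs1, Mvk, Pmvk, Mvd, Idi1, Fdps, Fdft1 and Sqle. The members were found by gene symbol in both deposited tables, which held all 9 among 33639 genes. All 9 also passed the filter on low values used below, a mean of at least 1 count per 1000000 counts (CPM) over the 4 libraries, which left 11743 measured genes. Each library came from the liver of 1 male mouse on standard chow with no other treatment: a wild type (WT), a global Cyp27a1 knockout (KO), a global knockout labelled Cyp3a4 (here Cyp3a KO) and a mouse lacking both (double knockout, DKO). The labels use the human symbol Cyp3a4 and do not describe the alleles or the age and strain of the mice. With 1 mouse per genotype there was no replicate check, no p-value was computed, and every difference includes that between individual mice.

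The mevalonate arm turns acetyl-CoA into squalene and then into squalene epoxide, from which lanosterol and cholesterol are made. Intermediates of the same arm also feed dolichol, ubiquinone and protein prenylation. In liver its genes are known as targets of the transcription factor SREBP2, which is released to the nucleus when sterols in the endoplasmic reticulum run low. Cyp27a1 encodes the mitochondrial sterol 27-hydroxylase of bile acid synthesis, and Cyp3a enzymes hydroxylate sterols, bile acids and foreign compounds.

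Sequence upstream of the members is shown first, as a description, and no link between it and the levels below was tested. RefSeq promoter windows (GRCm38.p6, 250 bases before to 50 after the start of transcription) matched 6 of the 9 members by symbol: Acat2, Hmgcs1, Mvk, Pmvk, Mvd and Idi1. Both strands were searched for TCACNCCAC, a form of the sterol regulatory element, for CCAAT, the letters of the NF-Y box, and for GGGCGG, the GC box, and no match overlapped a match to another motif. Printed bases are limited to those before the start that lie in no exon of a protein-coding gene, and capitals mark the matches to the first 2 motifs. A CCAAT on the other strand reads ATTGG.
Hmgcs1, chr13:119690101-119690350, plus strand: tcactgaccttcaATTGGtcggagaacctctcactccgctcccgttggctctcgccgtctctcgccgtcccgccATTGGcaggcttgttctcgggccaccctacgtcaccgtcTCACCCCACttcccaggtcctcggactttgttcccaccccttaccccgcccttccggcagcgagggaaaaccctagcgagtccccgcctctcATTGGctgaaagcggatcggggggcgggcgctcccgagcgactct
Mvk, chr5:114444061-114444268, plus strand: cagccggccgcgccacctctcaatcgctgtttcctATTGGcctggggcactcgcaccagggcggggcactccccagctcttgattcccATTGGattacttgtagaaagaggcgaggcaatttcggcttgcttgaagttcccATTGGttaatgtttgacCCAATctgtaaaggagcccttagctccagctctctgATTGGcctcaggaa
Mvd, chr8:122443423-122443672, minus strand: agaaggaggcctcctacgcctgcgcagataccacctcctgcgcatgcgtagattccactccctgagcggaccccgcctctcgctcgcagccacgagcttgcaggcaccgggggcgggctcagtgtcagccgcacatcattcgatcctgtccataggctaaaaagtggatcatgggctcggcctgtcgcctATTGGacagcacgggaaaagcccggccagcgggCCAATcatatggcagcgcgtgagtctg

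These 3 windows were chosen to show the single TCACNCCAC match and the repeated CCAAT letters. TCACNCCAC was found in 1 of the 6 members, at 137 bases before the start of Hmgcs1, and in 1.24% of all 32851 windows. CCAAT was found in 5 of the 6, with 5 matches at Mvk, and in 37.4% of all windows. GGGCGG was found in 5 of the 6 and in 35.7% of all windows. Acat2 had neither TCACNCCAC nor CCAAT in its window, Pmvk had CCAAT in 1 of its 2 windows, and the CCAAT matches of Idi1 lay within annotated exon sequence and are not printed. A match is a description of letters and not evidence of binding.

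The libraries were of near-equal depth, with 49745860 to 50378101 estimated counts. The targeted genes matched the labels: Cyp27a1 stood at 746 and 727 CPM in the WT and the Cyp3a KO against 57.6 and 65.3 CPM in the Cyp27a1 KO and the DKO, and Cyp3a11, a member of the mouse Cyp3a family, at 8742 and 23706 CPM in the WT and the Cyp27a1 KO against 0.160 and 4.76 CPM in the other two. Hepatocyte markers summed to between 61577 and 103115 CPM, against 148 to 369 CPM for 8 Kupffer cell markers and 1.97 to 2.64 CPM for 7 T and B cell markers, and hepatocyte genes were thus by far the most abundant of these. None of these markers was at 0 in any library. In bulk tissue, fewer cells of a type and less RNA per cell cannot be told apart.

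All 9 members were lowest in the WT liver and highest in the DKO liver. By CPM the Cyp3a KO stood above the Cyp27a1 KO for 8 of the 9, and Fdps was the exception. For Pmvk this order lay within counting error and was the opposite on deposited TPM, and for Acat2 it was the opposite once its near-identical copy was added, as given below for each gene. Summed over the 9, TPM values (transcripts per 1000000 transcripts, a level per transcript length) were 316 for the WT, 1013 for the Cyp27a1 KO, 1226 for the Cyp3a KO and 3636 for the DKO. Calls of higher or lower needed 3 things: a fold of CPM plus 0.5 of at least 2 in either direction, a mean of at least 1 CPM, and a count ratio whose exact 95% interval left out 1. Intervals given in parentheses cover counting error only, not differences between mice.

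**Figure D1:**
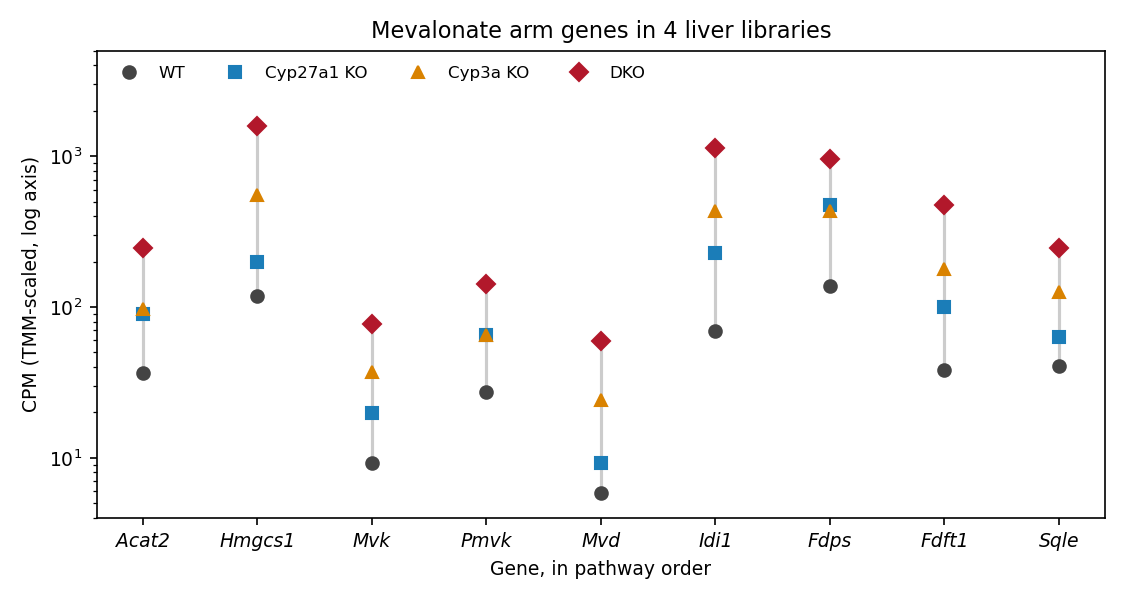
CPM of each mevalonate arm gene on a log axis, in pathway order, with 1 point per liver library and a grey line from the lowest to the highest. Every gene is lowest in the WT (circles) and highest in the DKO (diamonds), and at Acat2 and Pmvk the points of the Cyp27a1 KO and the Cyp3a KO nearly coincide.

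Acat2 encodes the cytosolic acetoacetyl-CoA thiolase, which joins acetyl-CoA units at the entry to the arm (chromosome 17, 12942890 to 12960747, minus strand, mm10). It stood at 36.6 CPM for the WT, 90.1 CPM for the Cyp27a1 KO, 96.3 CPM for the Cyp3a KO and 246 CPM for the DKO. The WT was low, the single knockouts were close to each other with a ratio of 1.07 (1.03 to 1.11), and the DKO was 6.71-fold above the WT (6.38 to 7.06). Acat2 lies beside a near-identical copy, Acat3 (chromosome 17, 12923813 to 12940600), and 43.7% of the 31-base words of its transcripts also occur in Acat3. The coding sequences of the 2 genes, each 1191 bases, were identical at 97.7% of positions with a longest identical run of 357 bases. Coding bases 37 to 156 of the GENCODE transcripts show how few positions separate them, with the 3 differing bases in capitals.
Acat2: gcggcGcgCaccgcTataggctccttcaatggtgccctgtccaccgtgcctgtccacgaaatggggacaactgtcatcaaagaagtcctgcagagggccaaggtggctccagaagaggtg
Acat3: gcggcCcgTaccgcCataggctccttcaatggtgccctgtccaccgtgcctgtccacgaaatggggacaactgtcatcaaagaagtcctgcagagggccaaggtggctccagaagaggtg

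The split of counts between Acat2 and Acat3 is therefore uncertain. Acat3 stood at 158, 304, 247 and 265 CPM in the WT, Cyp27a1 KO, Cyp3a KO and DKO, with a log2 fold of 0.75 in the DKO against the WT, and was called in 0 of the 5 comparisons. Acat2 supplied 18.8% of the pair's counts in the WT and 48.1% in the DKO. With both genes summed, the levels were 195, 394, 344 and 511 CPM in the WT, Cyp27a1 KO, Cyp3a KO and DKO, and the log2 fold was 1.02 for the Cyp27a1 KO, 0.82 for the Cyp3a KO and 1.39 for the DKO, each against the WT, so the call of Acat2 in the Cyp3a KO was lost. The summed value was 0.37 in the DKO against the Cyp27a1 KO and 0.57 against the Cyp3a KO, and both calls were lost. Acat3 also shares 571 exon bases with Tcp1 on the opposite strand, and the TruSeq v2 kit named in the labels does not mark strand.

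Hmgcs1 encodes the cytosolic HMG-CoA synthase, which makes HMG-CoA from acetoacetyl-CoA (chromosome 13, 119690379 to 119708260, plus strand). Its level was 119 CPM for the WT, 198 CPM for the Cyp27a1 KO, 551 CPM for the Cyp3a KO and 1589 CPM for the DKO. The 2 livers without Cyp3a were the high ones, and the Cyp27a1 KO lay near the WT at a ratio of 1.66 (1.61 to 1.72), which missed the 2-fold rule. The Cyp3a KO stood 2.78-fold above the Cyp27a1 KO (2.71 to 2.84), the widest gap between the single knockouts among the 9 members. The DKO was 13.3-fold above the WT (12.9 to 13.7).

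3 enzymes carry mevalonate to isopentenyl diphosphate: mevalonate kinase (Mvk), phosphomevalonate kinase (Pmvk) and mevalonate diphosphate decarboxylase (Mvd). Mvk (chromosome 5, 114444269 to 114460591, plus strand) stood at 9.22, 19.8, 36.9 and 77.2 CPM in the WT, Cyp27a1 KO, Cyp3a KO and DKO, and no 2 libraries were close. The ratios to the WT were 2.15 (1.92 to 2.41), 4.01 (3.61 to 4.46) and 8.37 (7.58 to 9.27). Mmab, a cobalamin enzyme gene that starts beside Mvk on the opposite strand, is named for its position and was at 10.5, 23.2, 32.3 and 49.9 CPM.

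Pmvk (chromosome 3, 89454541 to 89469013, plus strand) stood at 27.3, 65.2, 65.5 and 143 CPM in the same order of libraries. The single knockouts could not be told apart, at a ratio of 1.01 with an interval of 0.957 to 1.06, and their order was the opposite on deposited TPM, with 85.2 for the Cyp27a1 KO against 81.0 for the Cyp3a KO. The DKO was 5.24-fold above the WT (4.93 to 5.56), the smallest such ratio among the 9 members. Mvd (chromosome 8, 122433601 to 122443422, minus strand) stood at 5.83, 9.26, 24.0 and 59.5 CPM, with the 2 single knockouts well apart. Its Cyp27a1 KO level missed the rule at 1.59-fold above the WT (1.36 to 1.85), while the DKO was 10.2-fold above it (9.01 to 11.6).

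Idi1 encodes the isopentenyl diphosphate isomerase, which makes the allylic partner for chain building (chromosome 13, 8885501 to 8892451, plus strand). It stood at 68.8 CPM for the WT, 229.6 CPM for the Cyp27a1 KO, 433 CPM for the Cyp3a KO and 1139.7 CPM for the DKO. No 2 libraries were close, and the DKO against the WT gave 16.6 (16.0 to 17.2), the highest ratio in that comparison among the members. Its paralog Idi2 had at most 3 counts in any library. Of the 31-base words of Idi1 transcripts, 27.1% occur in other genes, and 18.4% occur in the predicted gene Gm13502, which had 162, 758, 1173 and 3535 counts in the WT, Cyp27a1 KO, Cyp3a KO and DKO. Idi1 itself had 3207, 11433, 21703 and 61739 counts.

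Fdps encodes farnesyl diphosphate synthase, whose product is the branch point between sterols and the other isoprenoids (chromosome 3, 89093588 to 89101959, minus strand). Its level was 138 CPM for the WT, 474 CPM for the Cyp27a1 KO, 431 CPM for the Cyp3a KO and 951 CPM for the DKO. Here the single knockouts were in the other order, with the Cyp27a1 KO 1.10-fold above the Cyp3a KO (1.08 to 1.12). The DKO was 6.91-fold above the WT (6.74 to 7.10). Fdps was the most abundant member per transcript length in all 4 libraries, at 145 TPM in the WT and 1318 TPM in the DKO, and its share of the summed TPM of the 9 was 45.9% for the WT, 56.5% for the Cyp27a1 KO, 39.8% for the Cyp3a KO and 36.2% for the DKO. Fdps shares 1124 exon bases on its own strand with the predicted gene Gm43738, which had 330, 855, 741 and 1378 counts against 6414, 23582, 21594 and 51531 for Fdps.

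Fdft1 encodes squalene synthase, the first step committed to sterols (chromosome 14, 63145150 to 63179578, minus strand). It stood at 38.1, 100.4, 179 and 476 CPM in the WT, Cyp27a1 KO, Cyp3a KO and DKO, and no 2 libraries were close. The DKO was 12.5-fold above the WT (11.9 to 13.1). Fdft1 shares 774 exon bases with Ctsb, a lysosomal protease gene on the opposite strand, whose counts were 21668, 24279, 19311 and 28675 in the same order. Reads from the shared bases cannot be assigned to a strand in these libraries, and their part in the Fdft1 values was not tested.

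Sqle encodes squalene epoxidase, the oxygen-dependent step that closes the arm (chromosome 15, 59315077 to 59331192, plus strand). Its levels were 40.4, 63.0, 125 and 248 CPM in that order of libraries. The Cyp27a1 KO lay closest to the WT, at 1.56-fold (1.47 to 1.65), the Cyp3a KO stood 1.99-fold above the Cyp27a1 KO (1.90 to 2.07), and the DKO was 6.14-fold above the WT (5.85 to 6.44). Of its 31-base words, 0.969% occur in other genes, and for Pmvk and Mvd the share was 0. The share was 31.9% for Fdft1, 27.9% for Fdps, 13.1% for Hmgcs1 and 2.18% for Mvk. The part of these shared words in the members' values was not tested.

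In the Cyp27a1 KO against the WT, 6 of the 9 members were called higher and 0 lower, where 2.44% of all measured genes were called higher and 1.36% lower. The 6 were Acat2, Mvk, Pmvk, Idi1, Fdps and Fdft1, and the 3 not called were Hmgcs1, Mvd and Sqle, with log2 folds of 0.73, 0.62 and 0.64. The median log2 fold of the 9 was 1.24, against 0.00 over all measured genes. Idi1 and Fdps led, at 1.73 and 1.78. Mvk had a log2 fold of 1.06 and was not called with a pseudocount of 2, where it was 0.96.

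In the Cyp3a KO against the WT, 9 of 9 were called higher, against 2.56% of measured genes called higher and 1.86% lower. The log2 folds ran from 1.25 at Pmvk to 2.65 at Idi1, with a median of 1.95 against 0.01 over all measured genes. In the DKO against the WT, 9 of 9 were again called higher, against 6.0% called higher and 4.02% lower, and the log2 folds ran from 2.37 at Pmvk to 4.04 at Idi1 with a median of 3.0 against -0.01. These 3 comparisons share the WT library, so a low value in that 1 mouse would enter each of them.

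**Figure D2:**
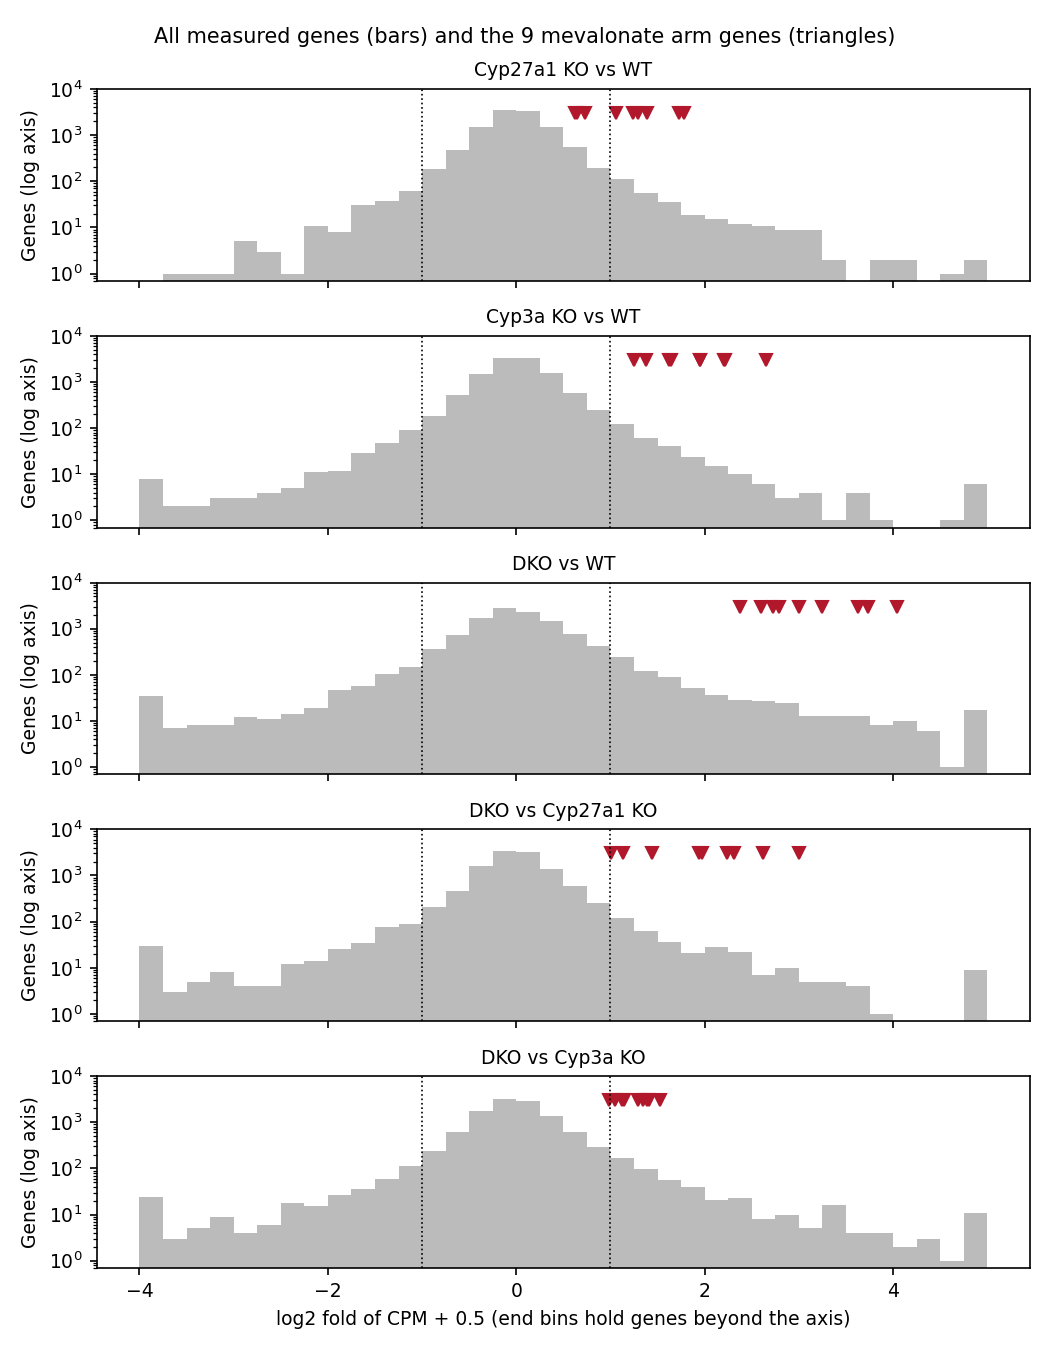
Number of measured genes per bin of log2 fold (bars, log axis) in each of the 5 comparisons, with the 9 mevalonate arm genes as triangles and dotted lines at the 2-fold limits. All triangles lie to the right of 0, between 2.37 and 4.04 in the DKO against the WT and between 0.98 and 1.53 in the DKO against the Cyp3a KO.

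2 further comparisons do not use the WT library. In the DKO against the Cyp27a1 KO, which compares livers with and without Cyp3a when Cyp27a1 is absent, 9 of 9 members were called higher, where 2.84% of measured genes were called higher and 2.59% lower. In the DKO against the Cyp3a KO, 8 of 9 were called higher, where 4.02% were called higher and 2.70% lower, and Sqle missed the rule. On deposited TPM the Sqle value was 1.26 and was called. The log2 folds ran from 1.01 at Fdps to 3.0 at Hmgcs1 in the first and from 0.98 at Sqle to 1.53 at Hmgcs1 in the second, and the medians were 1.97 and 1.29, against -0.01 and -0.02 over all measured genes.

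Livers with and without each gene can thus be compared in 2 pairs of libraries that have no library in common. Livers without Cyp27a1 against those with it gave ratios for Hmgcs1 of 1.66 (1.61 to 1.72) with Cyp3a present and 2.89 (2.85 to 2.92) with Cyp3a absent. For Fdps the order was the opposite, at 3.44 (3.35 to 3.54) and 2.21 (2.17 to 2.24). For Fdft1 the values nearly coincided, at 2.64 (2.50 to 2.78) and 2.66 (2.60 to 2.73), and their intervals overlapped.

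Loss of Cyp3a spread the members more widely. With Cyp27a1 present the ratio of Hmgcs1 was 4.61 (4.48 to 4.74), and with Cyp27a1 absent it was 8.01 (7.85 to 8.18). Mvd gave 4.11 (3.60 to 4.70) and 6.43 (5.83 to 7.10), while Fdps gave 3.13 (3.05 to 3.22) and 2.01 (1.98 to 2.04), the last at the edge of the 2-fold rule. Mvk gave 4.01 (3.61 to 4.46) and 3.90 (3.64 to 4.18), with overlapping intervals. For each gene, the change between backgrounds is by construction the same for both losses, because the same 4 libraries enter. The direction of change for loss of Cyp3a therefore does not repeat that for loss of Cyp27a1 as a separate observation.

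**Figure D3:**
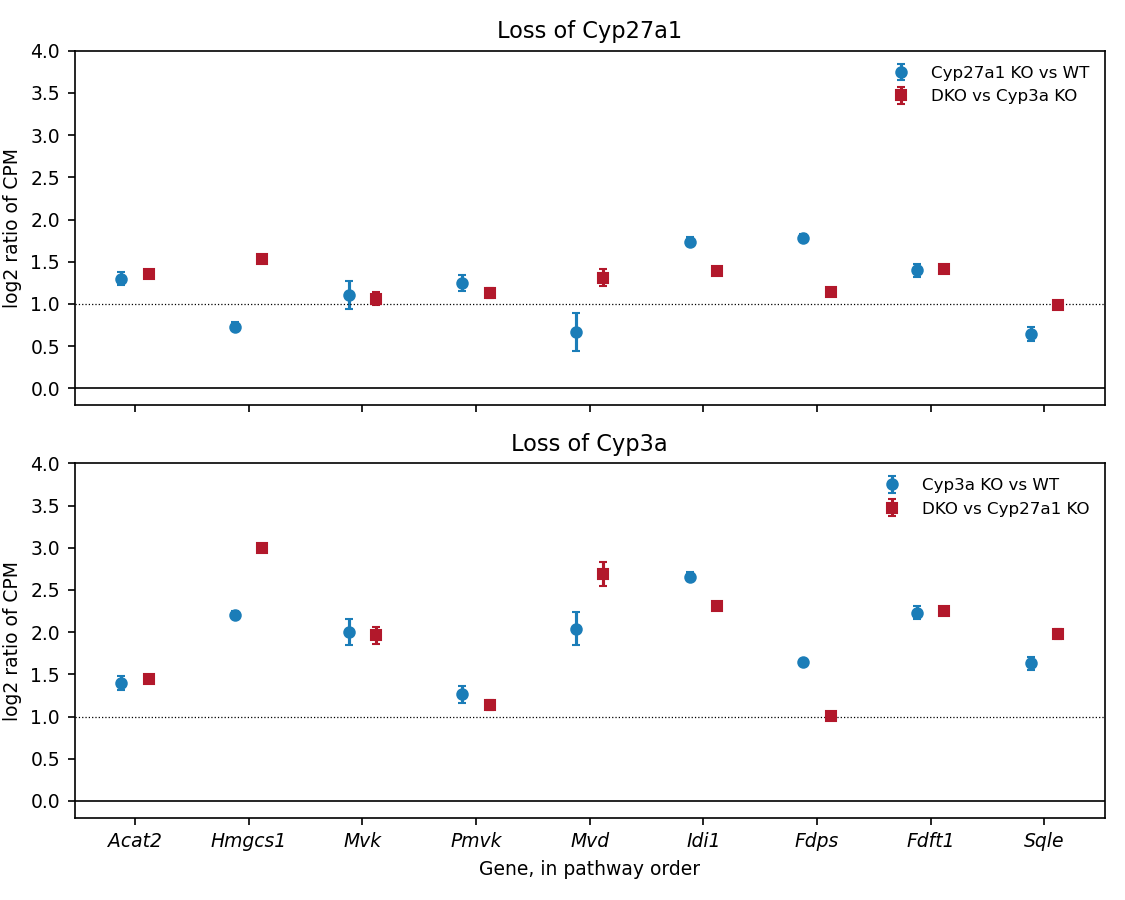
Log2 ratio of CPM per mevalonate arm gene for loss of Cyp27a1 (top) and loss of Cyp3a (bottom), on the intact background (circles) and on the background already lacking the other gene (squares), with exact 95% counting intervals and a dotted line at 2-fold. Hmgcs1 and Mvd are higher on the deficient background, Fdps is lower, and Acat2, Mvk and Fdft1 nearly coincide. Both panels use the same 4 libraries, so the gap from circle to square is by construction the same in each.

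The DKO level was also set against the product of the 2 single-knockout ratios, as a log2 departure that is 0 where the ratios multiply. This departure is the change between backgrounds given above, on the log2 scale, and not a further observation. The median over the 9 members was 0.02, with 5 above 0, against -0.02 over all measured genes. Hmgcs1, Mvd and Sqle lay above the product, by 0.80 (0.75 to 0.85), 0.65 (0.41 to 0.88) and 0.35 (0.25 to 0.44). These are the same 3 genes that missed the rule in the Cyp27a1 KO, and since both values contain the Cyp27a1 KO and WT libraries they are not separate observations. Fdps and Idi1 lay below it, at -0.64 (-0.69 to -0.60) and -0.34 (-0.40 to -0.28). The intervals of Acat2, Mvk and Fdft1 included 0, and Pmvk stood at -0.12 (-0.24 to -0.01).

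**Figure D4:**
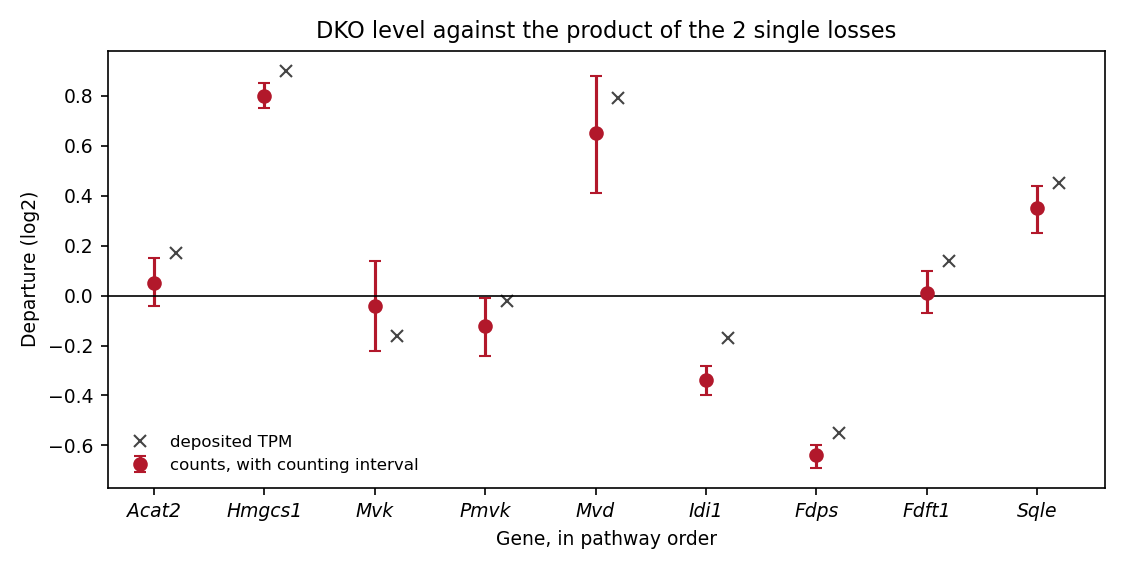
Log2 departure of the DKO level from the product of the single-knockout ratios for the 9 mevalonate arm genes, from counts (circles with 95% counting intervals, normal approximation on the log scale) and from deposited TPM (crosses). The members lie between -0.64 at Fdps and 0.80 at Hmgcs1 by counts.

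Per transcript length, Fdps was the most abundant member and Mvk and Mvd the least abundant in all 4 libraries. In the WT their order ran Fdps, Hmgcs1, Pmvk, Idi1, Acat2, Sqle, Fdft1, Mvk and Mvd, from 145 down to 4.25 TPM. In the DKO the order ran Fdps, Hmgcs1, Idi1, Fdft1, Pmvk, Acat2, Sqle, Mvk and Mvd, from 1318 down to 55.6 TPM. Idi1 and Fdft1 stood higher in the DKO order and Pmvk lower. In the Cyp27a1 KO, Idi1 at 104 TPM and Pmvk at 85.2 TPM stood above Hmgcs1 at 83.8 TPM. The highest member was 34.1 times the lowest in the WT and 23.7 times in the DKO. Among all 33639 genes, Hmgcs1 ranked 1750 by TPM in the WT and 172 in the DKO.

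Genes around the arm were read from lists of the pathway. Of 11 enzymes after squalene epoxide, the Cyp27a1 KO had 5 called higher, the Cyp3a KO 6 and the DKO 9, each against the WT, and 0 lower, with medians of 1.0, 1.02 and 1.91. In the DKO, Lss, the lanosterol synthase gene, had a log2 fold of 3.60 and Cyp51, the lanosterol demethylase gene, 3.26. At the low end, Lbr, a sterol reductase of the nuclear envelope, had 0.33 and Ebp, a sterol isomerase, 0.51, and neither was called. On deposited TPM, which moved the median of all measured genes by 0.18 there, the number called higher in the Cyp27a1 KO was 8 of 11. With TPM recentred on the median gene it was 5.

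The enzymes that draw on the arm for products other than sterols stood near 0. Of 18 such genes, 0 were called in any of the 5 comparisons, and their median log2 fold in the DKO against the WT was -0.07, or 0.12 with library-total scaling and 0.28 on deposited TPM, which itself moved the median of all measured genes by 0.33. Dhdds, which builds the dolichol chain, had the highest value in that comparison at 0.43, and Fntb, a farnesyltransferase subunit, had 0.28. Rce1, a protease that trims prenylated proteins, had the lowest at -0.58, and Cox10, which farnesylates heme, had -0.32. On deposited TPM Dhdds alone was called, in the DKO against the WT, and 0 of the 18 were called there with TPM recentred on the median gene.

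Paralogs of the thiolase step were read beside Acat2, and of Acat1, Acat3, Acaa1a, Acaa1b and Acaa2 0 were called higher in any of the 5 comparisons with TMM scaling of the counts. With library-total scaling Acat3 was called higher in the Cyp27a1 KO against the WT. Acat1, the mitochondrial thiolase, had a log2 fold of -0.42 in the DKO against the WT, the peroxisomal thiolases Acaa1a and Acaa1b 0.28 and -0.85, and the mitochondrial thiolase Acaa2 -0.64. Acaa1b was called lower in the DKO against the Cyp27a1 KO, at -1.40. On deposited TPM Acat3 was called higher in the Cyp27a1 KO and in the DKO against the WT, at 1.08 and 1.04. With TPM recentred on the median gene, 0 of these paralogs were called higher in either comparison.

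Among genes of the SREBP2 machinery and sterol transport, Stard4, a sterol carrier, had log2 folds of 0.27, 1.14 and 1.62 in the Cyp27a1 KO, the Cyp3a KO and the DKO against the WT, and was called in the last 2. Insig1, which retains SREBP proteins in the endoplasmic reticulum, was called in the DKO at 1.10. Its relative Insig2 was called lower there at -1.19, a call lost with library-total scaling and on deposited TPM. Srebf2, which encodes SREBP2, had 0.52 there and Mylip, a ubiquitin ligase, -0.39, and neither was called. Of 10 genes of acetyl-CoA supply and fatty acid synthesis, 4, 3 and 6 were called higher in the same 3 comparisons, among them Elovl6, a fatty acid elongase, at 3.03 and Acss2, a cytosolic acetyl-CoA synthetase, at 2.74 in the DKO. Me1, which supplies NADPH, and Acacb, an acetyl-CoA carboxylase, had -0.62 and -0.56 there and were not called.

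The genes most like the arm were sought among 8914 other genes with a mean of at least 5 CPM, by the distance between their 3 log2 folds against the WT and the members' medians of 1.24, 1.95 and 3.0. The measure rests on 4 libraries, and all 3 folds use the same WT library. The nearest was Msmo1, a sterol demethylation enzyme, with log2 folds of 1.17, 1.90 and 3.16, followed by Cyp2c29 with 1.39, 2.04 and 2.93. Cyp51, Nsdhl, Cyp2b10, Acss2, RP23-145I16.3 and Ces2a came next, at distances of 0.28 to 0.55. The 8 genes were thus 4 from the sterol and acetyl-CoA lists, the xenobiotic P450 genes Cyp2c29 and Cyp2b10, the carboxylesterase gene Ces2a and a gene known by a clone name. Of the 8914 candidates, 54 were in a pathway list. Sharing of reads with related genes was not tested for Cyp2c29, Cyp2b10 and Ces2a.

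Genes outside sterol metabolism also differed between the libraries. Of 7 clock genes of the Dbp phase, 0 were called higher and 1 lower in the Cyp27a1 KO against the WT, with 2 higher for the Cyp3a KO and 6 for the DKO, and their summed level was 158, 134, 387 and 415 CPM in the WT, Cyp27a1 KO, Cyp3a KO and DKO. Of 5 clock genes of the Arntl phase, 0, 3 and 4 were called lower, with sums of 219, 211, 118 and 56.7 CPM. Of 10 cell cycle genes, 8 were called higher in the DKO against the WT and 0 in either single knockout, with sums of 30.7, 28.6, 31.8 and 71.3 CPM. Kupffer cell markers were called higher in 2 of 8 cases in the DKO and lower in 1 in the Cyp3a KO, each against the WT, with sums of 216, 232, 148 and 369 CPM. Of 5 erythroid genes, both the Cyp3a KO and the DKO had 4 called lower against the WT, with sums of 608, 448, 286 and 279.9 CPM. In the DKO against the Cyp27a1 KO and against the Cyp3a KO, 3 and 6 of the 8 Kupffer cell markers were called higher, with medians of 0.82 and 1.54, beside medians of 1.97 and 1.29 for the mevalonate arm. In the same 2 comparisons, 8 and 7 of the 10 cell cycle genes were called higher, as were 6 and 2 of the Dbp phase genes, with 1 called lower in the second, while 4 and 2 of the Arntl phase genes were called lower. The 6 hepatocyte markers summed to 103115, 61577, 67287 and 86429.7 CPM in the WT, Cyp27a1 KO, Cyp3a KO and DKO, by CPM lower in each knockout than in the WT. Alb alone made up 72499 CPM of the WT sum. On deposited TPM the sums were 71635, 48469.8, 49520.0 and 74336, with the DKO above the WT. Of the 6, Ttr and Serpina1c were called lower in the DKO against the WT, at -1.17 and -1.62, and the list's median was -0.18, or 0.02 with library-total scaling. No gene of these 6 lists was at 0 in any library, and the time of day of collection is not given in the sources used here. Their part in the members' values was not tested.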

How the data were processed

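RNA was extracted from livers stored in RNAlater and libraries were made with the TruSeq v2 kit, per the labels' protocols. The authors deposited a table of estimated counts and a table of TPM (transcripts per 1000000), with 1 column per library. HISAT2 2.0.5, Trimmomatic 0.33, kallisto 0.43.1 and the build mm10 are named in the submitters' processing notes, with no role; the annotation is not given in the sources used here. Of the count values, 57.7% were whole within 1e-09, and estimated counts were rounded before use. A row without a gene name, with 0 counts, was dropped. Columns were matched to samples by name, and the count and TPM columns of a name deviated from the gene means together (correlation across genes at least 0.888, against at most 0.061 for other pairs).

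Counts were scaled to CPM with TMM factors (edgeR 4.0.16, R 4.3.3). Log2 folds were taken on CPM plus a pseudocount of 0.5, in genes with a mean of at least 1 CPM. Count ratios have exact 95% Clopper-Pearson intervals, which cover counting error only and not differences between mice. The reads carry no molecular identifiers, and the intervals cover neither copies made in amplification nor the assignment of reads to genes. Each genotype has 1 library, so no p-value was computed. The call rule and the intervals were run on simulated counts with known folds, in the Cyp27a1 KO against the WT only. The simulation held counting error alone and used library totals, so TMM scaling, the other steps and differences between mice were not tested by it. Alternatives were library-total scaling, DESeq2 1.42.0 size factors, deposited TPM as it stands and recentred on the median gene, no filter or a mean of at least 5 CPM, pseudocounts of 0.1 and 2, a 4-fold rule, no counting interval, and, added after seeing the data, Acat2 and Acat3 counts summed.

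Members and gene lists were chosen with earlier results of these data known. Besides the members, the text names the 2 highest and 2 lowest genes of each pathway list in the DKO against the WT, the thiolase paralogs and the 8 genes nearest to the members' medians; Mmab, Tcp1, Ctsb and the predicted genes are named for their position or shared sequence, and Srebf2 and Insig1 for their role, after their values were seen. Gene positions and transcripts come from GENCODE M21 (GRCm38, mm10), and shared sequence was counted as 31-base words of all transcripts of a gene. Some genes of these lists are not reported here.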

Additional observations from a re-analysis of the deposited data

How the results depend on the processing

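No paired analysis was possible because each genotype has 1 library. No log2 fold or median of the members changed sign under the alternatives run. The Mvk departure, whose interval includes 0, went from -0.01 to 0.02 with library-total scaling and 0.07 with a pseudocount of 2, and the order of the single knockouts turned at Pmvk on TPM and at Acat2 summed with Acat3. List medians near 0 did change sign: in the DKO against the WT, the non-sterol branches went from -0.07 to 0.12 with library-total scaling and 0.28 on TPM, and hepatocyte markers from -0.18 to 0.02 with library-total scaling. Of 455 log2 folds of single members under an alternative, 422 kept their side of the rule, 30 lost the call and 3 gained it. Members' medians ranged over 1.06 to 1.41 for the Cyp27a1 KO, 1.73 to 2.03 for the Cyp3a KO and 2.82 to 3.27 for the DKO against the WT, and over 1.94 to 2.14 and 1.14 to 1.56 in the DKO against the Cyp27a1 KO and the Cyp3a KO. With a 4-fold rule, which by construction calls fewer genes, the members called higher in these 5 comparisons were 0, 3, 9, 4 and 0, all genes called higher 65, 51, 197, 91 and 108, and lower 23, 38, 114, 79 and 84. With a mean of at least 5 CPM, which tests fewer genes, all genes called higher were 454, 181 and 269 in the 3 comparisons of the DKO, and lower 98 for the Cyp27a1 KO and 132 for the Cyp3a KO. A pseudocount of 2 gave 311 higher in the DKO against the Cyp3a KO, and 96 and 132 lower in the Cyp27a1 KO and the Cyp3a KO.

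On deposited TPM, 446 genes were called higher in the Cyp27a1 KO, 1280 in the DKO against the WT and 736 in the DKO against the Cyp3a KO, with 268 and 211 lower in the last 2. The median departure of the members from the product of the single losses was 0.14 on TPM against 0.02 by counts; the cause was not tested. TPM moved the median of all measured genes by 0.18, 0.09, 0.33, 0.16 and 0.24 in the 5 comparisons, and library-total scaling by 0.17 in the DKO against the WT. Of all calls, 64.2%, 57.9%, 59.9%, 52.3% and 59.8% were higher in the main analysis and 77.6%, 67.4%, 82.7%, 65.6% and 77.7% on TPM; library-total scaling gave 73.3% in the DKO against the WT. With TPM recentred on the median gene, Mvk in the DKO against the Cyp3a KO lost its call at 0.99. With Acat2 and Acat3 summed, the members called higher were 6, 8, 9, 8 and 7.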
